A study of Mus musculus with 10 samples.

Results

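The annexins and the S100 proteins are families of calcium-binding proteins that meet at membranes. Described here are 10 genes of these families that were listed as abundant in bEnd.3 cells: *S100a6*, *S100a10*, *S100a11*, *S100a13*, *Anxa1*, *Anxa2*, *Anxa3*, *Anxa5*, *Anxa6* and *Anxa7*. They were picked by name for their level, so their levels are described here without a test. All 10 had 1 row each among the 27024 rows with a gene name, and 25 annexin and S100 genes were found there in all. bEnd.3 is an immortalised mouse brain endothelial line, labelled wild type, and StcE is a bacterial mucinase, a protease that cuts proteins dense in mucin-type O-glycans. The 5 saline samples (replicates 1, 2, 3, 4 and 5) were given saline in growth media, and the 5 StcE samples (replicates 1, 2, 3, 5 and 6) were given 5 nM StcE in growth media. Both groups were collected at 16 h. All samples come from 1 cell line and the labels name no separate cultures, so p-values measure only the spread between these samples, which may be technical.

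Annexins bind negatively charged phospholipids when calcium rises, through a conserved core, and they help to organise, fuse and repair membranes. S100 proteins are small EF-hand proteins, most of which bind target proteins on a calcium signal, and some bind the tail of an annexin. *S100a10* pairs with *Anxa2* in a complex that sits on endothelial membranes and captures plasminogen and its activator, while *S100a11* pairs with *Anxa1*. Extracellular *Anxa1* and *Anxa5* are known, respectively, for signalling through formyl peptide receptors and for covering phosphatidylserine exposed on cells.

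After StcE, *Anxa6* fell by 18.0% in mean level, the largest difference among the 10 genes, and *S100a11* fell by 6.43%. *Anxa7* was 6.43% higher. Each of these 3 genes passed the test (limma adjusted p under 0.05), 2 of them lower and 1 higher, where 11.9% of the 11062 genes tested passed it, 6.41% lower and 5.52% higher. The StcE and saline samples did not overlap for the same 3 genes, as for 10.7% of all tested genes (all StcE samples lower for 5.80% and higher for 4.85%). The remaining 7 did not pass. The call of *S100a11* was close to the threshold (limma adjusted p = 0.0479) and was lost in each of the 10 fits that left out 1 sample. All 10 genes were above the filter for testing, a mean FPKM of at least 1, where FPKM counts fragments by gene length in kilobases. The per-library scale of the deposited values followed a size factor, the median over genes of the ratio to the gene's geometric mean over libraries. It deviated from that factor by -0.0441% to 0.0395%, and from the fragment total by -1.24% to 1.58%. Differences were tested on log2(FPKM + 1), and every fold change below is on that scale, StcE minus saline, which understates the change of low genes.

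The libraries held 21859342 to 33140289 fragments, recovered from the FPKM, with no difference in total between saline and StcE libraries larger than their spread (p = 0.278 by exact permutation, two-sided). The endothelial label was checked against 8 markers, all with a mean FPKM above 1, and *Cdh5* (cadherin of endothelial junctions) averaged 509 in saline. The lowest was *Vwf*, with a mean of 1.28 over all samples and 0.489 in saline replicate 5. Their summed FPKM was 1449 to 1579 in saline samples and 1386 to 1469 in StcE samples. Of the 8, 7 had a negative log2 fold change and 1, *Cldn5*, a positive one (0.024). Their median was -0.112, against -6.63e-04 over all tested genes. Past the threshold 3 were lower (*Pecam1*, *Tek* and *Esam*) and 0 higher, whereas only 6.41% of all tested genes were lower. *Cdh5* averaged 463 with StcE, without overlap of the groups, and narrowly did not pass (log2 fold change -0.14, limma adjusted p = 0.0515). The part of these differences in the results on annexins and S100 genes was not tested, and fewer cells of a type and less RNA per cell cannot be told apart in bulk samples. Of 8 fibroblast and mural markers 6 had a row and 1 had a mean FPKM above 1, *Pdgfra*. The summed FPKM of the list was 1.37 to 1.61 in saline and 1.34 to 1.69 in StcE. Of 6 leukocyte markers 5 had a row and 1 had a mean FPKM above 1, *Cd68* (a lysosomal protein). The summed FPKM was 19.4 to 21.7 in saline and 17.7 to 21.1 in StcE. The leukocyte-defining gene *Ptprc* was listed at 0 in every saline sample and at no more than 0.00198 in StcE samples.

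The levels of the 10 genes spanned from *S100a11*, with a mean FPKM of 1208 over the 10 samples and rank 12 of all rows, to *Anxa6*, with 27.4 and rank 2097. Between them, in falling order of mean FPKM, stood *S100a6* (896, rank 21), *Anxa2* (499.6, rank 59), *S100a10* (248, rank 163), *Anxa3* (151, rank 301), *Anxa5* (141, rank 323), *Anxa1* (96.3, rank 500), *S100a13* (51.6, rank 1009) and *Anxa7* (49.7, rank 1071). Most steps in this order were wider than the spread over samples. The ranges over the 10 samples overlapped only for *Anxa3* with *Anxa5*, where *Anxa3* was still the higher in every single sample, and for *S100a13* with *Anxa7*, where neither gene was the higher in every sample. The S100 genes of the list were among the most abundant transcripts of these cells, with *S100a13* as the exception. The list did not take in every abundant member of these families, since *S100a16* (mean FPKM 112), a widely expressed member, and *S100a4* (45.9), known for cell motility, lay above *Anxa6*.

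**Figure D1:**
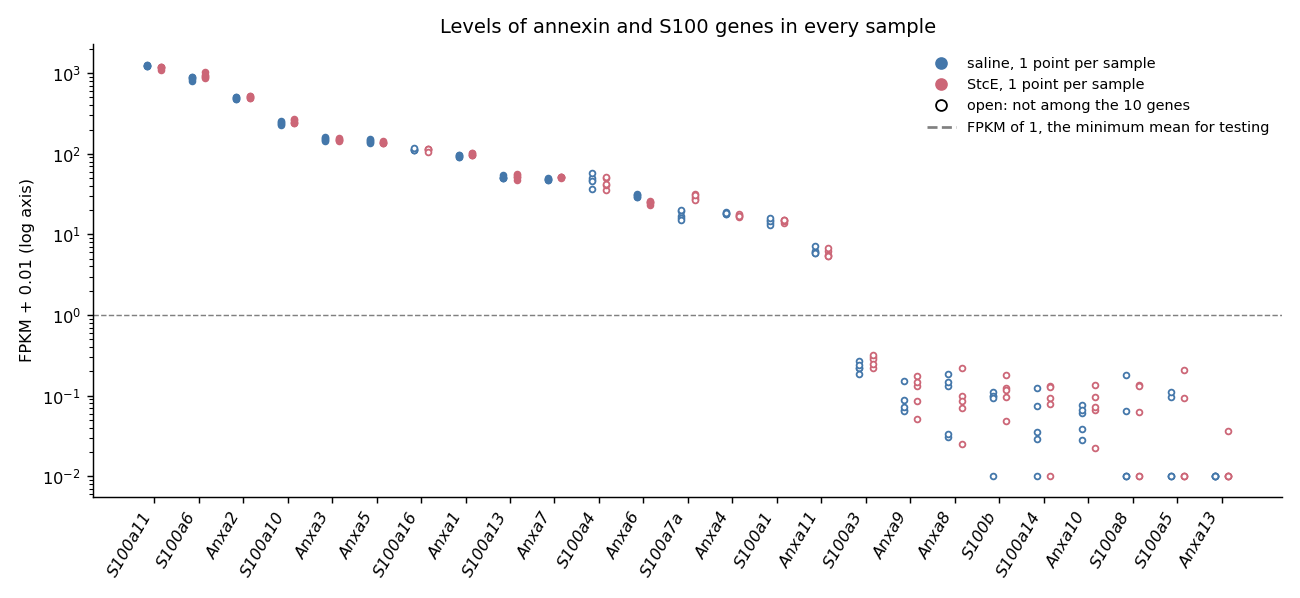
FPKM of each of the 25 annexin and S100 genes (log axis, 0.01 added so that values of 0 can be drawn), with 1 point per sample for 5 saline and 5 StcE samples, filled for the 10 genes described. *S100a11* lies highest, the 10 genes span means of 1208 to 27.4, and 9 family members lie below the dashed line at an FPKM of 1.

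All 4 S100 genes lie on mouse chromosome 3, in coordinates of GRCm38 from the GENCODE vM21 annotation, and each is a protein-coding gene. *S100a13* (90514435 to 90524581) and *S100a6* (90612882 to 90624181) lie in one stretch, and *S100a11* (93520488 to 93526287) and *S100a10* (93555080 to 93564643) lie further along. The annexin genes are spread over the genome. *Anxa5* (36448923 to 36475894) is also on chromosome 3, and *Anxa6* is on chromosome 11 (54979108 to 55033445), *Anxa7* on chromosome 14 (20455260 to 20480133), *Anxa2* on chromosome 9 (69453620 to 69491795), *Anxa3* on chromosome 5 (96793339 to 96845966) and *Anxa1* on chromosome 19 (20373428 to 20390944).

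**Figure D2:**
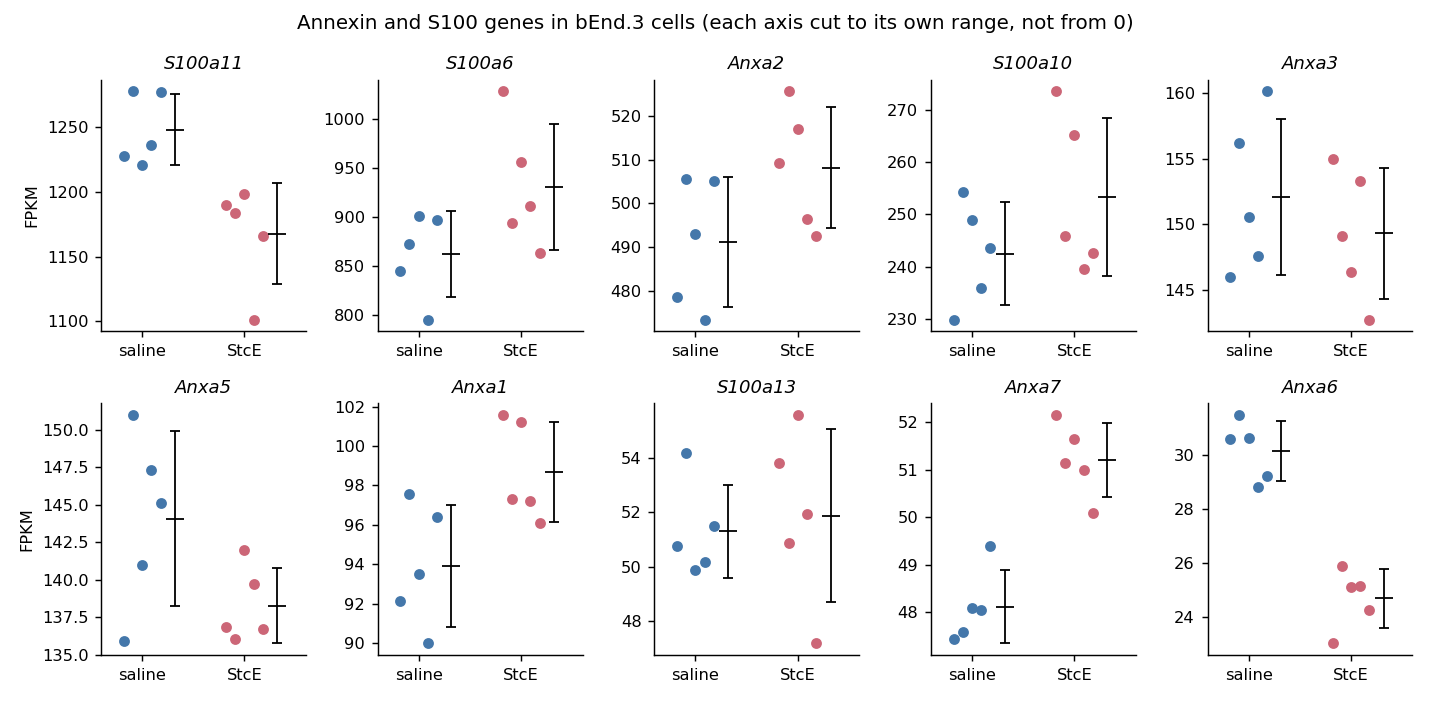
FPKM of the 10 genes in each sample, with the mean and SD of 5 saline and 5 StcE samples beside the points. Each vertical axis covers only that gene's own range and does not start at 0. The groups are apart for *S100a11* (1221 to 1278 in saline, 1101 to 1198 in StcE), *Anxa7* (47.4 to 49.4, 50.1 to 52.2) and *Anxa6* (28.8 to 31.5, 23.0 to 25.9), and overlap for the other 7.

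Among the S100 partners of annexins, *S100a11* (calgizzarin, a regulator of growth and membrane repair) was listed at 1228, 1278, 1221, 1236 and 1277 FPKM in saline replicates 1 to 5. The StcE replicates 1, 2, 3, 5 and 6 had 1190.2, 1184, 1198, 1101 and 1166. All StcE values were under the lowest saline value, and StcE replicate 5 was the lowest of all. The means were 1248 ± 27.6 with saline and 1168 ± 39.1 with StcE (SD, n = 5 each). The log2 fold change was -0.096 (standard error, SE, 0.0283, 95% interval -0.16 to -0.034, limma adjusted p = 0.0479), and the exact two-sided permutation test gave p = 0.00794, the smallest that 5 against 5 samples allow. This call was close to the threshold and was lost in 18 of 21 alternative fits. It was lost in every one of the 10 fits that left out 1 sample (limma adjusted p from 0.0631 without StcE replicate 1 to 0.0982 without saline replicate 2), while the direction was lower in all 21. The value is also uncertain because 58.1% of the *S100a11* transcript is nearly identical to parts of *Gm12854* and *Gm7665*, and the counting could split fragments between them.

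*S100a10*, the partner of *Anxa2*, had 243 ± 9.84 FPKM with saline and 253 ± 15.1 with StcE (SD, n = 5 each). The groups overlapped, with 2 StcE samples above all saline samples. Its log2 fold change of 0.062 (95% interval -0.029 to 0.15) did not pass the test (limma adjusted p = 0.366).

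*S100a6* (calcyclin, a gene tied to proliferation) had the largest positive log2 fold change of the 10 but wide spread. Saline replicates 1 to 5 were at 845, 872, 901, 795 and 897 FPKM, and StcE replicates 1, 2, 3, 5 and 6 at 1029, 894, 956, 911 and 863. StcE replicate 1 stood highest and 3 StcE samples lay above all saline samples, while the other two lay within the saline range. With means of 862 ± 43.7 and 931 ± 64.2 (SD, n = 5 each), the log2 fold change was 0.11 (SE 0.0490, 95% interval 0.0016 to 0.22), which did not pass after adjustment (limma adjusted p = 0.175, exact permutation p = 0.0952). The tested genes with the profile nearest to that of *S100a6* over the 10 samples were *Gm4366*, *Rpl36* (a ribosomal protein gene) and *Tomm5* (a subunit of the mitochondrial import channel). Their root mean square differences from it were 0.0244, 0.0332 and 0.0354 in log2 units centred on each gene's mean.

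*S100a13*, known for the export of *Fgf1* and *Il1a* by a route outside the secretory pathway, had 51.3 ± 1.71 FPKM with saline and 51.9 ± 3.18 with StcE (SD, n = 5 each). The lowest and the highest of all 10 samples were both StcE samples, replicate 6 at 47.2 and replicate 3 at 55.6. Its log2 fold change of 0.014 (95% interval -0.075 to 0.10, limma adjusted p = 0.858) turned to -0.011 without StcE replicate 3. Between 823 and 1378 fragments per sample lay behind this gene, the fewest of the 9 members with a recovered count.

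Among the annexins, *Anxa6* stood apart from the other 9 genes in the size of its difference. It encodes a long annexin with a repeated core that links membranes to the actin cytoskeleton and to endocytic trafficking. Saline replicates 1 to 5 had 30.6, 31.5, 30.6, 28.8 and 29.2 FPKM. StcE replicates 1, 2, 3, 5 and 6 had 23.0, 25.9, 25.1, 25.2 and 24.3. The highest StcE sample lay well under the lowest saline sample. The means were 30.1 ± 1.10 and 24.7 ± 1.10 (SD, n = 5 each), a log2 fold change of -0.28 (SE 0.0347, 95% interval -0.35 to -0.20, limma adjusted p = 4.81e-04, exact permutation p = 0.00794). The call held in all 21 alternative fits, with log2 fold changes from -0.29 to -0.23 and a highest limma adjusted p of 0.0171. The transcript has no near-identical copy in another gene under the search used, and 1588 to 2726 fragments per sample were recovered for it. Nearest to its profile over the 10 samples were *Cav1* (caveolin), *Nedd9* (a docking protein) and *Tmem229b*, with root mean square differences of 0.0382, 0.0397 and 0.0444 in centred log2 units.

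*Anxa7* (synexin, known for promoting the fusion of secretory membranes) showed the tightest groups. Saline replicates 1 to 5 had 47.4, 47.6, 48.1, 48.0 and 49.4 FPKM, and StcE replicates 1, 2, 3, 5 and 6 had 52.2, 51.1, 51.7, 51.0 and 50.1. The lowest StcE value was above the highest saline value, with saline replicate 5 nearest to the StcE range. With means of 48.1 ± 0.770 and 51.2 ± 0.772 (SD, n = 5 each), the log2 fold change was 0.088 (SE 0.0201, 95% interval 0.044 to 0.13, limma adjusted p = 0.0169, exact permutation p = 0.00794). It passed the test in 20 of 21 alternative fits, with limma adjusted p of 0.0143 to 0.0468 when 1 sample was left out. The exception was a fit of 8 samples with replicate number for a block (limma adjusted p = 0.136).

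*S100a11* and *Anxa7* moved in opposite directions, and the 250 bases before their RefSeq start sites (GRCm38.p6) are printed to show what lies upstream of each. Capitals mark matches on either strand to 5 short motifs, namely the TATA box as TATAAA, the CCAAT box by its own letters, the GC box as GGGCGG, the ETS core as CCGGAA and the AP-1 site as TGANTCA. The table of promoters held 7 of the 10 genes, and *Anxa6*, *Anxa3* and *S100a10* are named only. The *S100a11* window is chr3:93520246-93520495 on the plus strand, and the *Anxa7* window is chr14:20480134-20480383 on the minus strand.
S100a11: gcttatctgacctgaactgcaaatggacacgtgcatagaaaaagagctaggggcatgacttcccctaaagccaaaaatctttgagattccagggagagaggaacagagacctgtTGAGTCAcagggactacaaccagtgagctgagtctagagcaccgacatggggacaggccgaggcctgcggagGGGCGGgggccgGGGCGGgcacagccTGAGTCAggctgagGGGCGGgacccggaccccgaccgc
Anxa7: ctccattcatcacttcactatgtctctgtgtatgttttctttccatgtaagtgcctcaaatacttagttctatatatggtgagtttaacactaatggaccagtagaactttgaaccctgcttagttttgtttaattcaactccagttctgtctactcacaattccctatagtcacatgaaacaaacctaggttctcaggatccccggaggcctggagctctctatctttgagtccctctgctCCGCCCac
The *S100a11* window held 3 GC boxes, beginning 64, 52 and 24 bases before the start, and 2 AP-1 sites, beginning 136 and 38 bases before it. The *Anxa7* window held 1 GC box, 8 bases before the start, and no match to the other 4 motifs. Of 32851 windows of this length, 32.7% held a GC box, 6.75% an AP-1 site, 12.4% a TATA box, 33.8% a CCAAT box and 12.0% an ETS core. The *Anxa2* window, not printed, held 3 GC boxes, 1 AP-1 site and 1 TATA box, and *Anxa2* did not pass the test. For *Anxa7* 2 start sites were listed, and the one nearest its annotated start was used. A match describes the letters of the window and is not a binding site. Whether any motif goes with the direction of a difference was not tested.

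The other annexins differed by less. *Anxa2*, the most abundant annexin, had 473 to 506 FPKM in saline samples and 493 to 526 in StcE samples, with means of 491 ± 14.8 and 508 ± 13.8 (SD, n = 5 each). The groups overlapped, with 3 StcE samples above all saline samples, and the log2 fold change of 0.049 (95% interval -0.011 to 0.11) did not pass the test (limma adjusted p = 0.274). The ratio of *S100a10* to *Anxa2* FPKM within each sample was 0.494 ± 0.0118 with saline and 0.499 ± 0.0273 with StcE, with overlapping groups. This ratio of transcript levels differed between groups by less than its SD in either group.

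*Anxa1*, the partner of *S100a11*, had 93.9 ± 3.11 FPKM with saline and 98.7 ± 2.53 with StcE (SD, n = 5 each). The groups overlapped, with saline replicates 2 and 5, at 97.6 and 96.4, inside the StcE range of 96.1 to 102. Its log2 fold change of 0.071 (95% interval 0.011 to 0.13) had an interval above 0 but did not pass after adjustment (limma adjusted p = 0.117, exact permutation p = 0.0556). *Anxa5*, the phosphatidylserine-binding annexin with anticoagulant activity, had 144 ± 5.82 and 138 ± 2.52 FPKM, and its log2 fold change was -0.058 (95% interval -0.12 to 0.0045, limma adjusted p = 0.213). The StcE samples of *Anxa5*, at 136 to 142, fell wholly within the saline range of 136 to 151. *Anxa3*, an annexin found in phagocyte granules, had 152 ± 5.96 and 149 ± 5.02 FPKM, a log2 fold change of -0.026 (95% interval -0.096 to 0.043, limma adjusted p = 0.636) that became 0.021 with scaling by the upper quartile.

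Summed over members, the families differed between groups by less than the spread between samples. The 6 annexins came to 959 ± 27.4 FPKM with saline and 970.3 ± 17.9 with StcE (SD, n = 5 each), and the 4 S100 genes to 2404 ± 66.4 and 2404 ± 104. Both pairs of ranges overlapped. Within these sums *S100a11* made up 51.9% ± 1.05 of the S100 sum with saline and 48.6% ± 1.45 with StcE, and *Anxa6* 3.14% ± 0.124 of the annexin sum with saline and 2.55% ± 0.110 with StcE. *Anxa2* made up 51.2% ± 0.355 of the annexin sum with saline and 52.4% ± 0.664 with StcE. No test was run on these shares.

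Taking the 10 genes as a list, 6 had a positive and 4 a negative log2 fold change, with a median of 0.032, against -6.63e-04 over all 11062 genes tested. The size of the log2 fold change was under 0.1 for 8 of the 10, all but *Anxa6* and *S100a6*, and for 73.4% of all genes tested. Genes at least as abundant as *Anxa6* passed the test more often than all tested genes did, 17.0% of 2096, and 78.1% of them differed by less than 0.1. The 95% intervals of the 7 members that did not pass ran from -0.12 for *Anxa5* to 0.22 for *S100a6*, so differences beyond those sizes lie outside the intervals of these genes.

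**Figure D3:**
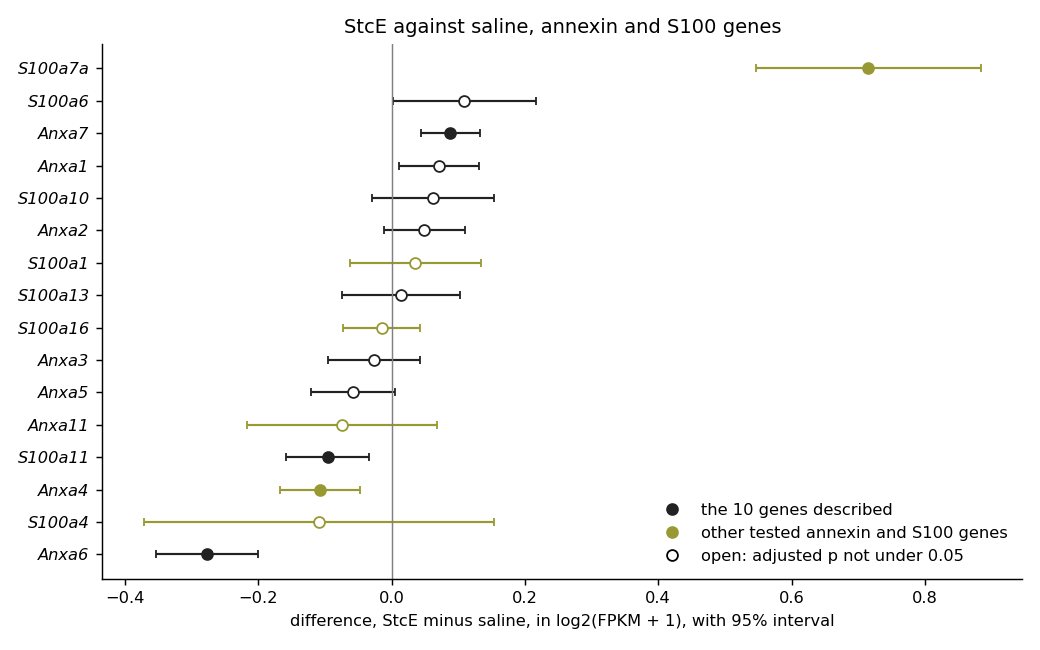
Difference between StcE and saline in log2(FPKM + 1) for the 16 tested annexin and S100 genes, with 95% intervals from limma, n = 5 samples per group. Filled points passed an adjusted p of 0.05. *Anxa6* is lowest at -0.28, and *S100a7a*, which is not among the 10 genes, is highest at 0.715.

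The rest of both families was examined for comparison. Of 6 further annexin genes 2 passed the filter on level, and of 13 further S100 genes 9 had a row and 4 passed. The largest difference in either family belonged to *S100a7a*, an S100 gene known from inflamed skin. Its saline replicates 1 to 5 had 19.7, 16.8, 19.8, 16.1 and 15.0 FPKM, and StcE replicates 1, 2, 3, 5 and 6 had 29.2, 27.5, 31.9, 26.5 and 31.2. Every StcE sample lay far above every saline sample. With means of 17.5 ± 2.16 and 29.3 ± 2.31 (SD, n = 5 each), it was 67.3% higher, a log2 fold change of 0.715 (SE 0.0771, limma adjusted p = 1.81e-04), and it passed in all 21 alternative fits. Near-identical copies in *Clasp1* cover 11.7% of its transcript.

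*Anxa4*, an annexin of secretory epithelia, fell from 18.5 ± 0.440 to 17.1 ± 0.568 FPKM (SD, n = 5 each) with no overlap of the groups, a log2 fold change of -0.11 (limma adjusted p = 0.0290). That call held in 10 of 21 alternative fits and in 4 of the 10 that left out 1 sample, with a highest limma adjusted p of 0.0670 among these, without StcE replicate 5. The other tested genes did not pass. *S100a16* had 113 ± 2.64 and 112 ± 3.57 FPKM (limma adjusted p = 0.753), *S100a1*, a calcium sensor of muscle, 14.5 ± 1.02 and 14.8 ± 0.583 (0.653), and *Anxa11* 6.23 ± 0.537 and 5.88 ± 0.624 (0.502), with 24.3% of its transcript nearly identical to other genes. *S100a4* varied most between samples, with 47.7 ± 7.59 and 44.1 ± 6.73 FPKM (limma adjusted p = 0.601). Its exons share 51.7% of their length with *Gm42674* on the same strand. *Anxa8*, *Anxa9*, *Anxa10*, *Anxa13*, *S100a3*, *S100a5*, *S100a8*, *S100a14* and *S100b* had a mean FPKM under 1 and were not tested. *S100a7l2*, *S100a9*, *S100g* and *S100z* were not analysed here.

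Known partners and receptors of these proteins were followed next. Of 17 such genes 15 had a row and 9 were tested, of which 0 were lower and 2 higher past the threshold, where 6.41% of all tested genes were lower and 5.52% higher. The median log2 fold change of the list was 0.048. The 6 genes with a row that were not tested had a mean FPKM under 1. Among them were *Fgf1* (0.0520), *Il1a* (0.0252) and the formyl peptide receptor genes *Fpr1* (0.0309) and *Fpr2* (0.00336). *Cacybp*, which encodes the binding protein of *S100a6*, rose from 47.6 ± 1.90 to 51.8 ± 2.07 FPKM (log2 fold change 0.12, limma adjusted p = 0.0416). *Tlr4*, the endotoxin receptor that also answers to extracellular S100 proteins, rose from 19.2 ± 0.720 to 21.2 ± 0.712 FPKM without overlap of the groups (log2 fold change 0.14, limma adjusted p = 0.0149). The *Cacybp* groups overlapped, and its call was lost in 8 of 10 fits that left out 1 sample, with a highest limma adjusted p of 0.0953 without saline replicate 1, whereas that of *Tlr4* held in all 10. The most abundant gene of the list was *Bsg*, a surface receptor of S100 proteins, at 257 ± 0.959 and 259.8 ± 5.04 FPKM (limma adjusted p = 0.602).

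Membrane repair is a process in which annexins plug and reseal a torn plasma membrane. Of 16 genes of this process 14 were tested, and 2 were lower and 2 higher past the threshold, all 4 without overlap of the groups. Over all tested genes 6.41% were lower, 5.52% were higher and 10.7% had no overlap. The median log2 fold change of the list was -0.011. The calpains, calcium-activated proteases, moved apart from one another. *Capn1* fell from 19.0 ± 0.814 to 17.0 ± 0.822 FPKM (log2 fold change -0.15, limma adjusted p = 0.0245) and *Capn2* rose from 70.3 ± 0.701 to 74.8 ± 1.75 (log2 fold change 0.088, limma adjusted p = 0.0201). Their shared small subunit *Capns1*, the most abundant gene of the list, had 259 ± 2.94 and 252.04 ± 3.43 FPKM and did not pass (limma adjusted p = 0.175). *Esyt1*, a tether between the endoplasmic reticulum and the plasma membrane, fell from 19.1 ± 0.336 to 17.5 ± 0.656 FPKM (log2 fold change -0.12, limma adjusted p = 0.0206). *Pdcd6* (ALG-2, an EF-hand protein that recruits repair machinery) rose from 21.9 ± 0.978 to 24.4 ± 0.622 FPKM (log2 fold change 0.15, limma adjusted p = 0.0102). Without saline replicate 3 the calls of this list numbered 2, since *Capn1* (limma adjusted p = 0.0556) and *Capn2* (0.0511) no longer passed. *Capn1* was also lost without saline replicate 4 or StcE replicate 5, and *Esyt1* without saline replicate 1 or StcE replicate 3. On the opposite strand, *Gm37885* overlaps 27.1% of the exon length of *Capn2* and *Gm10814* 11.8% of that of *Capn1*.

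Phosphatidylserine exposed on the outer face of the membrane is what *Anxa5* binds, and scramblases and flippases set that exposure. All 12 genes listed for it were tested, and 4 were lower and 0 higher past the threshold, where 6.41% of all tested genes were lower and 5.52% higher. The median log2 fold change was -0.024. *Ano6*, a calcium-activated scramblase, fell from 26.0 ± 0.727 to 23.5 ± 1.10 FPKM (log2 fold change -0.14, limma adjusted p = 0.0194) and *Plscr2*, of the phospholipid scramblase family, from 6.55 ± 0.523 to 5.38 ± 0.422 (log2 fold change -0.24, limma adjusted p = 0.0193), both without overlap. *Plscr4*, of the same family, fell from 2.06 ± 0.227 to 1.62 ± 0.160 FPKM (log2 fold change -0.22, limma adjusted p = 0.0380), and the flippase *Atp11a* from 15.4 ± 0.738 to 13.96 ± 0.692 (log2 fold change -0.14, limma adjusted p = 0.0465), both with overlapping groups. The members that moved thus included a scramblase, which exposes the lipid, and a flippase, which returns it inward. The most abundant gene, *Plscr3*, had 98.5 ± 1.88 and 98.4 ± 1.01 FPKM (limma adjusted p = 0.963), and 25.6% of its transcript is shared with *Tnk1*. The number of calls was 1 to 4 when 1 sample was left out and was lowest without StcE replicate 3, where *Plscr2* alone passed. *Atp11a* and *Plscr4* each passed in only 2 of the 10 fits that left out 1 sample, with highest limma adjusted p of 0.107 without saline replicate 1 and 0.0880 without StcE replicate 3, respectively.

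Other EF-hand proteins served as a comparison of calcium sensors outside the S100 family. Of 16 such genes 14 were tested with limma and 0 passed, with 3 at an unadjusted p under 0.05 and 0 called by limma's voom on recovered fragments. Over all tested genes 11.9% passed, and no difference between this list and the annexins and S100 genes was tested. Their median log2 fold change was -0.036. EF-hand genes placed under membrane repair were not in this list, among them *Pdcd6*, which passed (limma adjusted p = 0.0102). The 0 calls thus describe this list and not all EF-hand genes outside the S100 family.

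**Figure D4:**
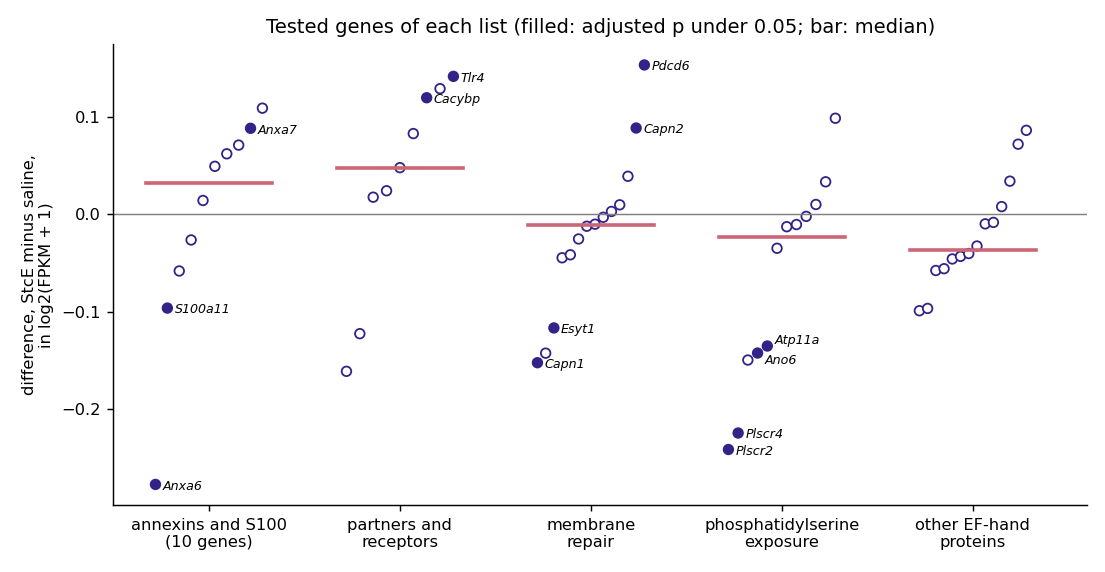
Difference between StcE and saline in log2(FPKM + 1) for the tested genes of 5 lists, with 1 point per gene, filled where the limma adjusted p was under 0.05, and a bar at each median. The 10 annexin and S100 genes have a median of 0.032 with *Anxa6* far below, and the 4 filled genes of phosphatidylserine exposure all lie below 0.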

How the data were processed

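RNA from bEnd.3 cells (5 saline and 5 StcE samples) was made into strand-marked poly-A libraries. The authors aligned reads to mm10 and deposited FPKM per gene. HISAT2 2.0.5, featureCounts 1.5.0-p3 and DESeq2 1.32.0 are named in the submitters' processing notes, and the annotation release was not given in the sources used here. The authors used DESeq2, which needs counts. Here log2(FPKM + 1) was tested with limma 3.58.1 in R 4.3.3 (lmFit, eBayes with trend, condition as the sole term, Benjamini-Hochberg over the 11062 genes whose FPKM averaged 1 or more), and single genes also by exact two-sided permutation over all arrangements of 5 and 5 samples. The procedure was checked on simulated data. It found 96 of 200 genes changed by 0.2 in log2, and 192 of 200 changed by 0.5. Gene lengths from GENCODE vM21 turned 96.6% of values above 0 into whole fragments (tolerance 0.05), on which limma's voom was run as an alternative. Voom called 1493 genes. *Anxa1* did not come out whole and has no voom value. Copies were searched with BLAST 2.17.0 (at least 95% identity over 150 bases). Replicates differed by more than sampling noise (chi-square per degree of freedom 3.62 to 11.0). The depth per sample sets counting error only.

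The genes and lists were chosen with earlier results of these data known. Genes named are the 10 members, every other annexin or S100 gene, the called genes and the most abundant gene of each further list, and the 3 nearest profiles to the members with the largest positive and negative difference. The result of 1 gene under this rule is not reported here. The cell type markers, partners with a mean FPKM under 1, *Gm12854* and other genes that share sequence are named beyond that rule. Alternatives were a pseudocount of 0.1, a minimum of 0.1 or none, other scalings and variance models, voom, a replicate block and each sample left out. Scaling by the upper quartile of tested genes was added after seeing the data.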

Additional observations from a re-analysis of the deposited data

How the results depend on the processing

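Of 209 refits of the 10 genes, 2 turned a direction, *Anxa3* to 0.021 with scaling by the upper quartile and *S100a13* to -0.011 without StcE replicate 3 (-0.011 to 0.047 over the fits that left out 1 sample). None of the 146 refits of the 7 genes that did not pass brought one past the threshold. Outside the 10 genes, *S100a16* turned to 0.033 with scaling by the upper quartile and to 0.0023 without StcE replicate 6 (-0.026 to 0.0023 over such fits). The number of the 10 genes past the threshold was 3, and 2 in every fit that left out 1 sample.

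Across all genes, 1320 passed (709 lower, 611 higher). Without a filter, which tests 27024 rows, 801 passed (409 lower, 392 higher). Leaving out 1 sample gave 793 to 1255 (409 to 667 lower, 384 to 588 higher), the lowest without StcE replicate 3, and 838 (428 lower) without saline replicate 1. Scaling by the upper quartile, taken over the values above 0 of all rows, left 183 lower and shifted the median of all genes to 0.041. Lower genes were then 18.2% of the calls, against 53.7% as deposited. With the upper quartile of tested genes 1292 passed, 639 of them lower (49.5%), and the median of all genes was 0.0034. Samples that shared a replicate number showed no sign of pairing (correlations of deviations from -0.0966 to 0.0538 over 4 shared numbers, and 0 of 4 samples correlated best with their own number). With only 4 shared numbers, this check cannot exclude a pairing. A fit of 8 samples that took replicate number for a block passed 349 (162 lower, 187 higher) and 1 of the 10 genes, *Anxa6*. The block left 0 calls among the other annexins, the partners and receptors, membrane repair and phosphatidylserine exposure. Without the block these 8 samples gave 885 calls (452 lower, 433 higher), with 2 among the 10 genes, 0 among the other annexins, 2 among partners and receptors, 2 in membrane repair, 2 in phosphatidylserine exposure and 1 among the other EF-hand proteins. The cause of these moves was not tested.

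The call among the other annexins, *Anxa4*, also became 0 without a filter and with scaling by total fragments or by the upper quartile. The partners and receptors had 1 call without a filter or at a minimum of 0.1, and 4 with voom. Scaling by the upper quartile left 2 calls in membrane repair, 1 in phosphatidylserine exposure and 1 among the other EF-hand proteins, which also had 1 with the upper quartile of tested genes. Phosphatidylserine exposure had 1 without a filter and 2 at a minimum of 0.1. Leaving out 1 sample gave 0 to 1 calls among the other annexins, 1 to 3 among partners and receptors, 2 to 5 in membrane repair, 1 to 4 in phosphatidylserine exposure and 0 to 1 among the other EF-hand proteins.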

Other observations

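Within the saline group, replicate 2 had the highest FPKM for 7 of the 10 genes (*S100a10*, *S100a11*, *S100a13*, *Anxa1*, *Anxa2*, *Anxa5* and *Anxa6*), and replicates 1 and 4 each had the lowest for 4. Within the StcE group, replicate 1 was the highest for 5 of the genes (*S100a6*, *S100a10*, *Anxa1*, *Anxa3* and *Anxa7*) and the lowest for *Anxa6*, and replicate 6 was the lowest for 6. Dixon's test found no sample far from its group in 52 groups of 5 samples examined, the tested annexin and S100 genes and the called genes of the further lists.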
